A study of Mus musculus with 5 samples.

Results

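The 10 genes described here are known in astrocytes, in Bergmann glia or in their radial precursors: Gfap, Aqp4, S100b, Gjb6, Ndrg2, Clu, Atp1b2, Agt, Ntsr2 and Tnc. They were chosen by name, with earlier results of these data known. Each was read by 1 probe that carried its symbol alone, and they make up 10 of the 773 genes named on an array of 897 probes. The RNA was total RNA of whole mouse cerebellum, taken at embryonic day 18, here E18, and at P7, P14, P21 and P56, the letter P standing for days after birth, with 1 column of values for each age. Strain, sex and the number of animals were not stated in the labels. Each column is the mean of 2 array experiments, whose separate values were not analysed here, so no difference below has a replicate check and none has a p-value. Values were read as the percent of a gene's own highest age, averaged over both experiments. A value therefore compares ages of one gene and never one gene with another. All 10 genes stood above 1% at every age.

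Astrocytes are the glial cells that buffer potassium, take up transmitter and contact vessels and synapses. In the cerebellum their best known form is the Bergmann glial cell, which lies beside the Purkinje cells and sends radial fibres through the molecular layer to the pial surface. Its fibres guide granule cells inward after birth, and the cell matures while the cortex is built around it. RNA of a whole tissue cannot tell apart more cells of a type and more RNA per cell, and several of these genes are also used by other cells, such as ependyma, choroid plexus and neurons.

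Of the 10 genes, 9 were 2-fold or more higher at P56 than at E18 and 1, Tnc, was lower. They did not rise together. By the first age at which a gene reached 50% of its own highest value, here called its onset, Gfap and Aqp4 had their onset at P7, and Ntsr2 reached that mark last, at P56. Between them came Agt, S100b, Ndrg2 and Clu at P14 and then Gjb6 and Atp1b2 at P21. Tnc was already near its highest value at E18 and stood at 19.2% by P14. Rises of 2-fold or more between P56 and E18 were found in 22.6% of the 897 probes and falls in 52.5%. The median log2 difference was 2.45 for the 10 genes and -1.07 for all probes, that is 3.52 above the median probe. Since the genes were chosen with earlier results of these data known, these shares and medians describe the list and do not test it.

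**Figure D1:**
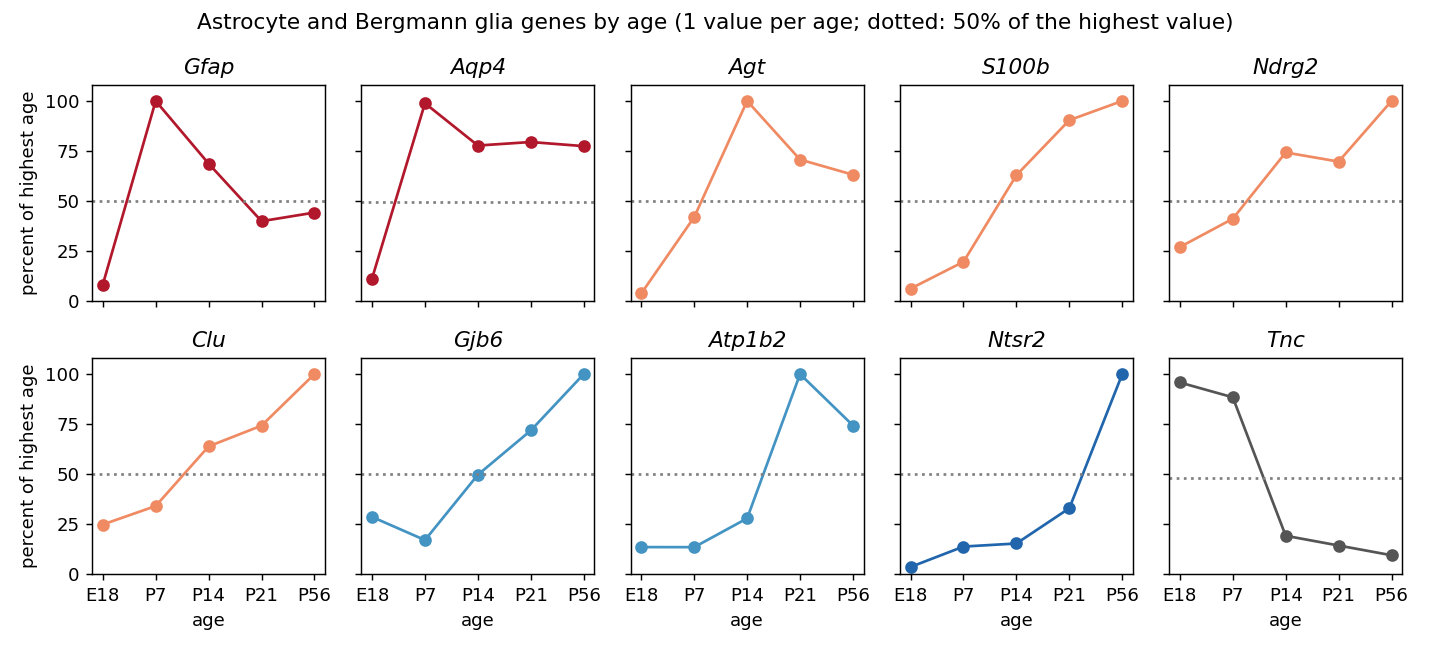
Percent of a gene's own highest age (vertical axis) at each of the 5 ages, drawn at equal distances (horizontal axis), with 1 point per age, the mean of 2 array experiments, and no error bars. Panels run by onset, the first point on or above the dotted line at 50% of the highest value (dark red P7, orange P14, light blue P21, dark blue P56, grey E18): Gfap stands at 100% at P7, S100b passes the line at P14 with 62.9%, Atp1b2 at P21 with 100% and Ntsr2 at P56.

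The genes were chosen by name as known in astrocytes, Bergmann glia or their radial precursors. Whether they share a cell type in this tissue was not tested. Because their time courses differed, the sequence before the start of transcription is shown for genes of different courses. These are Gfap of the P7 onset, Agt and S100b of the P14 onset, Ntsr2 of the P56 onset and Tnc, which fell. The sequences are those of RefSeq on the mouse build GRCm38.p6, 5′ to 3′ in the direction of the gene, and end at the base before the outermost annotated start. Capitals mark matches, on either strand, to a STAT motif (TTCNNNGAA), an NFI half-site (TTGGC) or a TATA box (TATAAA). STAT and NFI proteins are transcription factors that are known to act on glial genes such as Gfap in the mouse.

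Gfap, chr11:102897201-102897450, minus strand: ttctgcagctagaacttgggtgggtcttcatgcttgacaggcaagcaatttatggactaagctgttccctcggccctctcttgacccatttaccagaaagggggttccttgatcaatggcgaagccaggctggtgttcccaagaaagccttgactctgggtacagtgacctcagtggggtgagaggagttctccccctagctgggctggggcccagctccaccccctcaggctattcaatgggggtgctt

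Agt, chr8:124569707-124569956, minus strand: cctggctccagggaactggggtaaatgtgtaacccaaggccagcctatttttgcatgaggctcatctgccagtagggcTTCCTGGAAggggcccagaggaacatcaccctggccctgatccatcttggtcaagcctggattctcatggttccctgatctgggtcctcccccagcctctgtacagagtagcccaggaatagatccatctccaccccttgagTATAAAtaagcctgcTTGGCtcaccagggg

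S100b, chr10:76253586-76253835, plus strand: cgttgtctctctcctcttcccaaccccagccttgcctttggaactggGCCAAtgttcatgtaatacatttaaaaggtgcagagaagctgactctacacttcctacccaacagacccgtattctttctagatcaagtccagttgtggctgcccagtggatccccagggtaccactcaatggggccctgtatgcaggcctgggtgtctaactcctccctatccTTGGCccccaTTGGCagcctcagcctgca

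Ntsr2, chr12:16653220-16653442, plus strand: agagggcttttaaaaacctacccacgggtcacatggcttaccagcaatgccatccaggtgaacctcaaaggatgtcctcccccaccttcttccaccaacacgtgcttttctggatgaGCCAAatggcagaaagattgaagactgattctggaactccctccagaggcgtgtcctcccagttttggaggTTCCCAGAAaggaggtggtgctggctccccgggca

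Tnc, chr4:64047016-64047265, minus strand: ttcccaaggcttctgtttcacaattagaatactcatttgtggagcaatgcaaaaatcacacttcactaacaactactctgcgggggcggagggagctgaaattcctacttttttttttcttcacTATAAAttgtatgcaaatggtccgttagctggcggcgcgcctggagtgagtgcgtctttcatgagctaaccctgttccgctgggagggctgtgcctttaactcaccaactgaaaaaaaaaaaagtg

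Of the 7 genes with an entry (these 5, Gjb6 and Ndrg2), 2 held the STAT motif, Agt at -172 and Ntsr2 at -35, counted back from the start to the first base of the match. Among 32851 mouse promoters, over 250 bases each, 7.02% held it, while the Ntsr2 window is shorter, at 223 bases. The NFI half-site stood in 4 of the 7 (Agt, S100b, Ndrg2 and Ntsr2), against 41.5% of promoters, and S100b had 3 of them, at -203, -29 and -19. The letters of the TATA box, on either strand, stood in 3 of the 7, against 12.4%. Agt at -30 and Tnc at -126 held TATAAA in the direction of the gene. Ndrg2 at -29 held it on the opposite strand only, so that its sequence reads TTTATA. No base lay in more than 1 match. In the Gfap window none of these letters was found, which says nothing about sites elsewhere. Such matches describe letters and no more, and the genes with the STAT motif, Agt and Ntsr2, had their onset at P14 and at P56.

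Gfap and Aqp4 came first. Gfap encodes the glial fibrillary acidic protein, the intermediate filament of astrocytes. It stood at 8.17% at E18, 100% at P7, 68.7% at P14, 39.9% at P21 and 44.2% at P56. It was thus highest at P7 and lay below 50% of that value from P21 on. Its P7 value was 12.2-fold its E18 value, the third largest rise of all 897 probes at that step, with values under 1% counted as 1%. Its P56 value was 2.26-fold lower than its P7 value and still 5.41-fold higher than its E18 value.

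Aqp4 encodes the main water channel of astrocytes, which is dense in the endfeet on vessels and at the pial surface. It stood at 11.3%, 98.9%, 77.7%, 79.5% and 77.4% over the 5 ages in order. After the same early rise it kept, as deposited, a plateau where Gfap declined: P14, P21 and P56 lay within 0.04 of each other from step to step on the log2 scale. With columns divided by their medians Aqp4 instead rose by 0.23 at P14 against P7 and by 0.43 at P21 against P14. Gfap then moved by 0.03 and -0.39 at these 2 steps. With quantile normalization the 2 steps were -0.07 and 0.03 for Aqp4 and -0.33 and -0.39 for Gfap. As deposited, the P7 value of Aqp4 was 8.76-fold higher than its E18 value, and its P56 value was 1.28-fold lower than its P7 value. Its highest value of 98.9% and not 100% means, on the reading of the scale used here, that its highest age was not the same in both experiments.

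The onsets of Gfap and Aqp4 can be limited in each experiment. If each experiment lies between 0 and 100%, the mean of 2 limits both of them: for Gfap each experiment was at 100% at P7 and at no more than 16.3% at E18, a rise of at least 6.12-fold in each. For Aqp4 each was at 97.7% or more at P7 and at 22.6% or less at E18, a rise of at least 4.33-fold. The same limits fix the onset age in both experiments for 3 of the 10 genes, Gfap, Aqp4 and Tnc. For the other 7 one of the experiments may have passed 50% at another age.

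Among all 897 probes, 301, or 33.6%, had their highest value at P7. Among the probes that rose, which were chosen for a high P56 value, such an early peak was rare. Of the 203 probes that were 2-fold or more higher at P56 than at E18, 2 had their highest value at P7, and these were Gfap and Aqp4. Of the other 194, those of the 9 genes being set aside, 0 did. This depends on the scale between columns, since values of the whole table were lower after P7: with columns divided by their medians, Gfap was highest at P14 and Aqp4 at P21, and with quantile normalization both were highest at P7 and were 2 of 6 such probes among 246 that rose. The log2 difference of P56 against P7 was -1.18 for Gfap as deposited, -0.20 with columns divided by their medians and -0.61 with quantile normalization. For Aqp4 it was -0.35, 0.63 and -0.16 in the same order, so whether Aqp4 was lower at P56 than at P7 turns on the scale. Their onset at P7 held under both scales.

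Agt belongs between the first genes and those that followed. It encodes angiotensinogen, the precursor of the angiotensin peptides, which astrocytes are the main cells of the brain to make. It stood at 3.84% at E18, 42.0% at P7, 100% at P14, 70.7% at P21 and 63.1% at P56. Its rise at P7 over E18 was 10.9-fold, the fourth largest of the 897 probes, after that of Gfap and before that of Aqp4. Its onset nevertheless fell at P14, because that first rise ended under 50% of the highest value. Measured against 50% of its P56 value, its onset was P7.

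S100b, Ndrg2 and Clu climbed over several ages to their highest value in the adult. S100b encodes a small calcium-binding protein of astrocytes and Bergmann glia, and stood at 6.23%, 19.6%, 62.9%, 90.4% and 100% over the 5 ages in order. Every step was upward, and as deposited the first 2 were of nearly the same size, 3.15-fold for P7 over E18 and 3.20-fold for P14 over P7. With quantile normalization their log2 differences were 0.81 and 2.37, and with columns divided by their medians 1.69 and 2.26. Over the whole span S100b rose 16.1-fold, and at least 8.03-fold in each experiment.

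Ndrg2, a gene of the N-myc downstream-regulated family that is strong in astrocytes, stood at 27.0%, 41.1%, 74.3%, 69.7% and 100%. Clu, which encodes the secreted chaperone clusterin (apolipoprotein J), stood at 24.8%, 34.1%, 63.9%, 74.2% and 100%. As deposited neither moved 2-fold at a single step. At P14 against P7 the log2 difference of Ndrg2 was 0.85 as deposited, 1.43 with columns divided by their medians and 1.38 with quantile normalization, and that of Clu 0.91, 1.48 and 1.46 in the same order, so that both passed 2-fold at that step on either other scale. Over the whole span the rises for P56 over E18 were 3.70-fold for Ndrg2 and 4.03-fold for Clu. Their courses were the most alike of the 45 pairs among the 10 genes, with a root mean square log2 difference of 0.17 over the 5 ages. For comparison, the 14 genes of the table with 2 probes had a median of 0.32 between the probes, and a highest of 1.31.

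Gjb6 and Atp1b2 stayed low until after P7. Gjb6 encodes connexin 30, a gap junction protein of mature astrocytes. It stood at 28.6% at E18, 17.1% at P7, 49.7% at P14, 71.8% at P21 and 100% at P56. Its value at P7 was lower than at E18 by 1.68-fold, within the 2-fold limit as deposited, though with quantile normalization the log2 difference was -1.17, past that limit. Gjb6 then rose 2.91-fold at P14 over P7. At P14 it was just short of 50%, so that its onset at P21 rests on a small margin, and quantile normalization moved it to P14.

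Atp1b2 encodes the beta-2 subunit of the sodium-potassium pump, first known as the adhesion molecule on glia. It stood at 13.6%, 13.5%, 27.9%, 100% and 74.3%. Values at P7 and E18 were the same within 1.01-fold as deposited, though with quantile normalization P7 was lower by a log2 difference of -0.62, and the main rise came late: P21 was 3.58-fold higher than P14, the third largest rise of the 897 probes at that step. The P56 value was 1.35-fold lower than the P21 value.

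Ntsr2 was last. It encodes the low-affinity neurotensin receptor, which is found in astrocytes. It stood at 3.63% at E18, 13.8% at P7, 15.4% at P14, 33.0% at P21 and 100% at P56. Its first rise, of 3.81-fold at P7 over E18, took it to a low shelf, where P14 was 1.11-fold higher than P7. As a log2 difference that first rise was 1.93 as deposited and 0.80 with quantile normalization. Rises of 2.15-fold at P21 over P14 and 3.03-fold at P56 over P21 followed, the last of them the ninth largest of all probes at that step. Of the 203 probes that rose, 3 had their onset at P56, or 1.48%, and Ntsr2 was one of them. Its rise of 27.5-fold at P56 over E18 was the largest of the 10 genes, and each experiment must have risen at least 13.8-fold.

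Tnc went the other way. It encodes tenascin C, an extracellular matrix protein that radial glia, immature astrocytes and developing Bergmann glia secrete. It stood at 95.8% at E18, 88.4% at P7, 19.2% at P14, 14.3% at P21 and 9.49% at P56. It was as high at P7, within 1.08-fold, as at E18, and P14 was 4.60-fold lower than P7. By P56 it was 10.1-fold lower than at E18, and at least 4.83-fold lower in each experiment. The fall of Tnc thus stood at a step, P14 against P7, at which S100b, Gjb6, Agt and Atp1b2 rose 2-fold or more. For Agt and Atp1b2 it was not the largest rise. On the log2 scale Agt rose by 1.25 there and by 3.45 at P7 against E18, and Atp1b2 by 1.05 there and by 1.84 at P21 against P14.

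**Figure D2:**
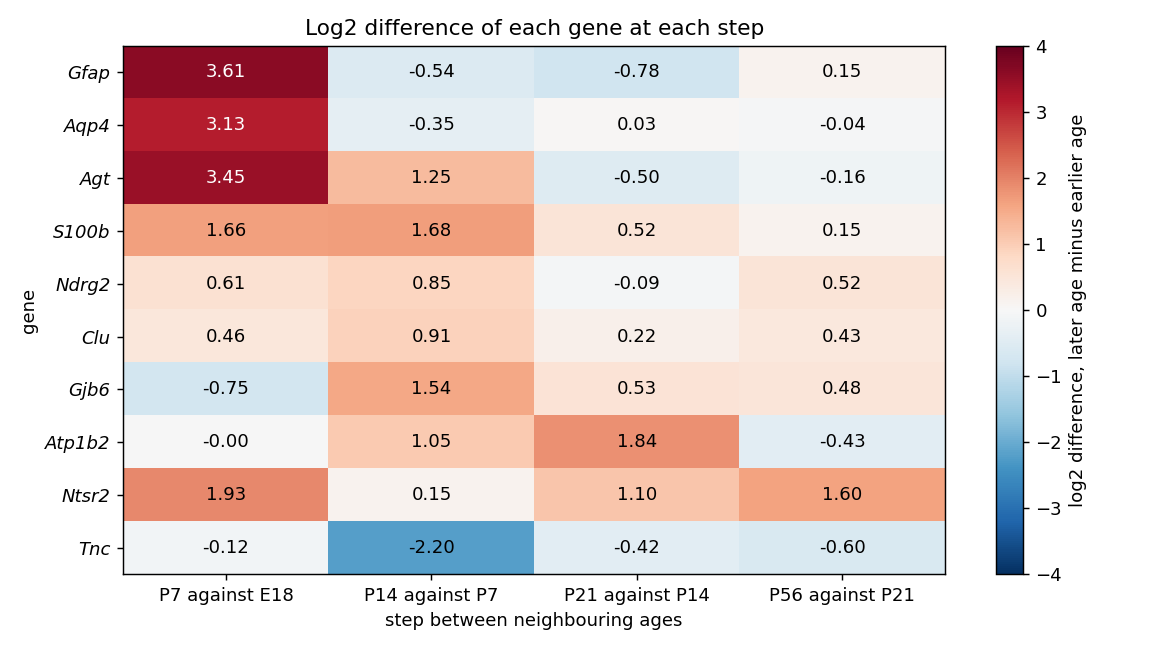
Log2 difference of each gene (rows, by onset) at each step between neighbouring ages (columns), later age minus earlier age, with its value in the cell, from 1 value per age; red is higher and blue lower at the later age. As deposited, the largest rise is at the first step for Gfap (3.61), Aqp4 (3.13), Agt (3.45) and Ntsr2 (1.93, ahead of 1.60 at the last step). For Ntsr2 that step lies between low values, and with quantile normalization it was 0.80, against 1.97 at the third step. The largest rise of Atp1b2 is at the third step (1.84), and Tnc has its blue cell at the second step (-2.20).

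Counted by step, 5 of the 10 genes were 2-fold or more higher at P7 than at E18 (Gfap, Agt, Aqp4, Ntsr2 and S100b), against 5.8% of all probes, and 0 were lower, against 2.79%. At P14 against P7, 4 were higher (S100b, Gjb6, Agt and Atp1b2), against 14.4%, and 1, Tnc, was lower, against 24.7%. At P21 against P14, 2 were higher (Atp1b2 and Ntsr2), against 3.23%, and 0 lower, against 13.2%. At P56 against P21, 1 was higher (Ntsr2), against 2.68%, and 0 lower, against 2.23%. The first of these counts leans on low values: when every value under the 10th percentile, 20.4%, was raised to it, 3 genes were higher at P7 than at E18, Gfap, Agt and Aqp4, since Ntsr2 and S100b lay under that floor at both ages. The limits on each experiment ensured a 2-fold rise in both from E18 to P56 for 5 genes (Aqp4, S100b, Clu, Agt and Ntsr2), against 7.92% of all probes. They do not show that the other genes fell short of 2-fold in an experiment.

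**Figure D3:**
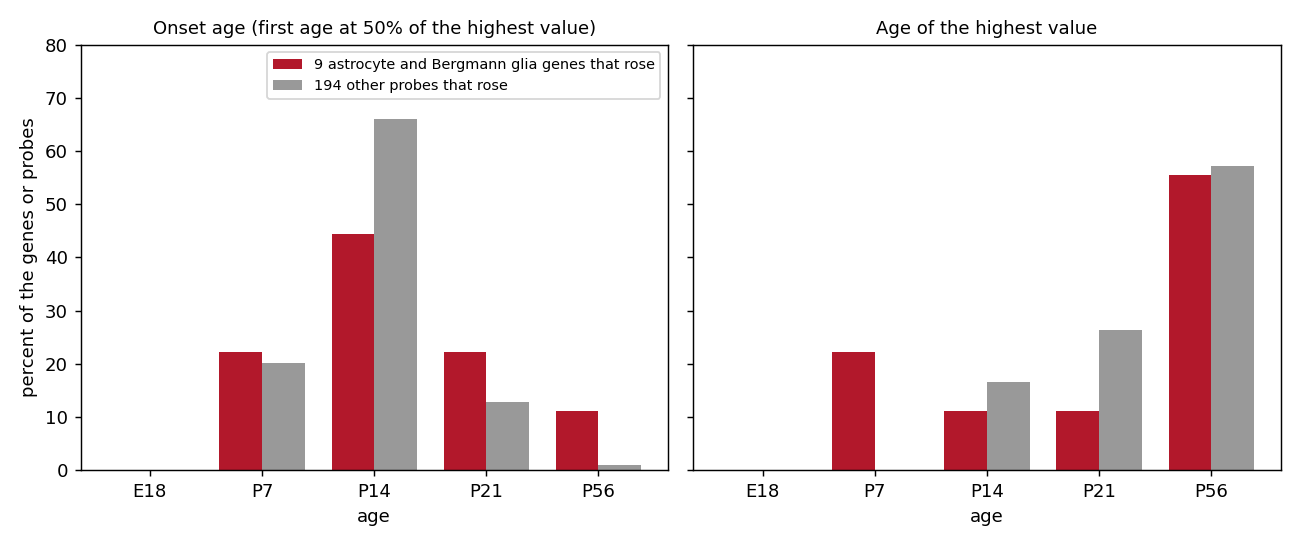
Percent of genes or probes (vertical axis) with their onset (left) or their highest value (right) at each age, for the 9 astrocyte and Bergmann glia genes that were 2-fold or more higher at P56 than at E18 (red) and the other 194 probes that were (grey). At P14 the onset bars stand at 44.4% and 66.0%, and at P7 the bars of the highest value stand at 22.2% (Gfap and Aqp4, which move to P14 and P21 with columns divided by their medians) and 0%. Of all 897 probes, which are not drawn, 33.6% had their highest value at P7.

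The onsets of the 9 genes that rose were spread over 4 ages: 2 at P7, 4 at P14, 2 at P21 and 1 at P56. Of the other 194 probes that rose, 39 had their onset at P7, 128 at P14, 25 at P21 and 2 at P56, so that P14 held 44.4% of the 9 genes and 66.0% of the others. With 9 genes the difference was not tested. Onset ages have an error of their own, since of the 14 genes with 2 probes 11 had the same onset on both. Those 14 were not limited to genes that rose, and 73.2% of all probes had their onset at E18. The count therefore gives no error rate for the 9 genes. Of the 9 genes, 5 had their highest value at P56, or 55.6%, against 57.2% of the other 194 probes. In 3 (Gfap, Agt and Atp1b2) the P56 value was at or under 75% of the highest, against 8.76% of the other 194 probes. That count rests on the scale between columns: it was 1 (Atp1b2) with columns divided by their medians, against 7.22%, and 1 (Gfap) with quantile normalization, against 5.67%. Of the 10 genes, 8 stood at exactly 100% at one age, which on the reading used here means the same highest age in both experiments, against 46.8% of all probes.

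Most pairs of the 9 genes that rose were less alike than the median pair of probes of 1 gene, though many lay within the range of such probes. The median root mean square difference of their 36 pairs was 1.17 on the log2 scale, and 1 of the 36 pairs, Ndrg2 and Clu, was as close as the median of 2 probes of 1 gene, while 23 of the 36 were at or under the highest such difference, 1.31. Gfap and Aqp4 were 0.61 apart, and Aqp4 and Ntsr2, the pair farthest apart, 1.89. The nearest other named genes of the table differed from gene to gene. Nearest to Clu were Rad9b (0.08) and Slc20a1 (0.12), and nearest to Ndrg2 were Gria1, an AMPA receptor subunit gene (0.12), and again Slc20a1 (0.12), a phosphate transporter gene. Nearest to S100b were Tlcd4 (0.27) and Htra1, a secreted protease gene (0.31). Gjb6 lay nearest to the carbonic anhydrase gene Car2 (0.27) and to Napb (0.28), and Atp1b2 to another carbonic anhydrase gene, Car4 (0.28), and to Inpp5j (0.34). Tnc lay nearest to Tspan6 (0.13) and Dctpp1 (0.18).

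Gfap, Aqp4, Agt and Ntsr2 had no close neighbour. Gfap lay nearest to the forkhead gene Foxn2 (0.58) and to Ltbp2 (0.86), both highest at P14. Aqp4 lay nearest to S100a13 (0.57) and Thy1 (0.62), Agt to Bmp1 (0.78) and Tlcd4 (0.81), and Ntsr2 to the potassium channel gene Kcnj9 (0.90), ahead of Inpp5j. With 5 ages, such likeness describes the shape of a course and no more.

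Of 58 other genes listed as known in astrocytes, Bergmann glia or radial glia, 11 were on the array, and they did not share one course. Between P56 and E18, 3 were higher, 3 lower and 5 within 2-fold, with a median log2 difference of -0.41. Among all 897 probes 22.6% were higher and 52.5% lower, with a median of -1.07. The sign of the median of the 11 turned with the scale, to 0.60 with columns divided by their medians and 0.42 with quantile normalization. Htra1 rose 10.6-fold, standing at 9.45%, 22.1%, 77.3%, 92.2% and 100% over the 5 ages, close to S100b. Aldh1a1, a retinaldehyde dehydrogenase gene, rose 9.04-fold with its onset at P21, and Mt2, a metallothionein gene, rose 2.97-fold with its onset at P14.

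The genes that fell are known from precursor cells. Notch1, the receptor gene that keeps radial glia undifferentiated, was 8.69-fold lower at P56 than at E18, and Id3 and Id1, which encode inhibitors of basic helix-loop-helix factors, were 5.69-fold and 4.55-fold lower. Each of them fell 2-fold or more at P14 against P7, the step at which Tnc fell: Notch1 by 3.18-fold, Id1 by 2.25-fold and Id3 by 2.09-fold. Of all probes 24.7% did so. Of the 11 listed genes 4 were lower at that step, with Mfge8 (2.10-fold) among them, and 3 were higher. Relative to the other probes the falls of Id1 and Id3 at that step were smaller, with log2 differences of -0.60 and -0.49 when columns were divided by their medians. That of Notch1 was then -1.09 and that of Tnc -1.63. At P21 against P14, as deposited, Notch1 fell by 2.59-fold, Id3 by 2.51-fold and Id1 by 1.69-fold, and 13.2% of all probes fell 2-fold or more.

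Nfia and Nfix, which encode nuclear factor I proteins, stood at 100% at P7, the age at which Gfap did. Of all 897 probes 33.6% had their highest value at that age, and a link with Gfap was not tested. Nfia was at 49.0%, 100%, 50.2%, 28.3% and 37.0% over the 5 ages, and Nfix at 40.5%, 100%, 93.4%, 59.0% and 64.8%. Both were over 2-fold higher at P7 than at E18, Nfia by 2.04-fold and Nfix by 2.47-fold, and neither was 2-fold apart between P56 and E18. With columns divided by their medians Nfix was highest at P14 and 1.69 higher at P56 than at E18 on the log2 scale, while Nfia stayed highest at P7. Granule cells and other neurons also use both genes. Mfge8, a gene of bridging proteins for phagocytosis, was likewise at 100% at P7, and with Bcan, the brevican gene, and Sox2, a gene of neural stem cells and astroglia, stayed within 2-fold between P56 and E18, in a direction that turned with the scale between columns.

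**Figure D4:**
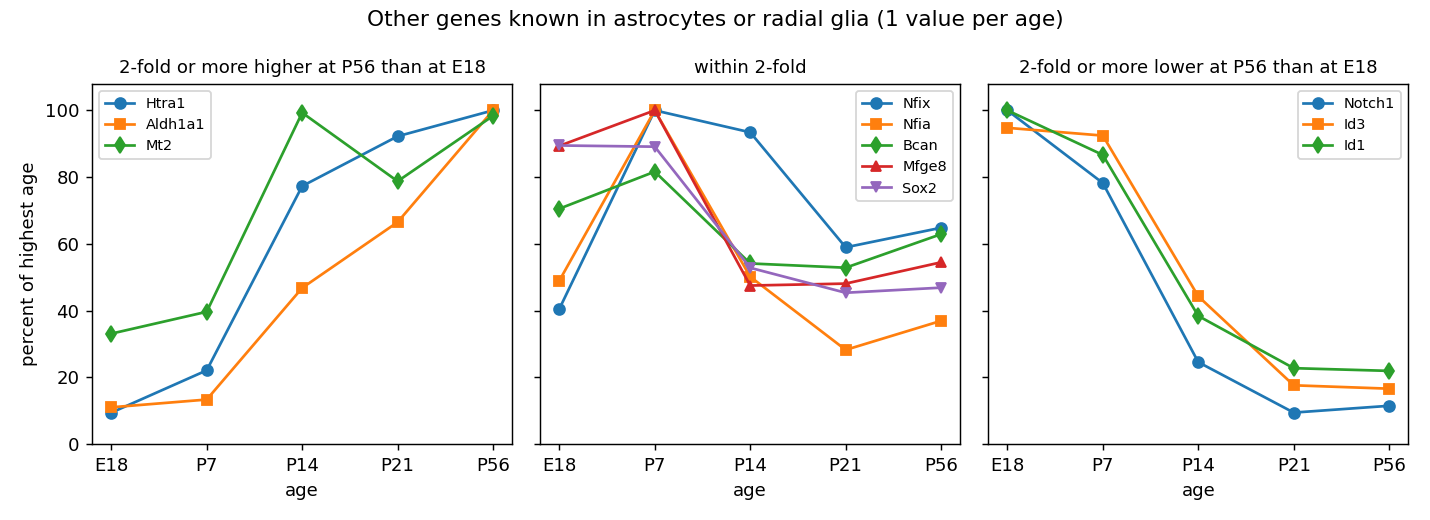
Percent of a gene's own highest age (vertical axis) at each of the 5 ages, drawn at equal distances (horizontal axis), for the 11 other listed genes, 1 point per age, split by their difference between P56 and E18. Htra1 climbs to 100% at P56, Nfia and Nfix stand at 100% at P7, and Notch1 drops to 9.48% at P21.

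Markers of other cells in the tissue moved over the same ages. Values relative to a gene's own highest age cannot show whether the markers of cerebellum are present, only their course. Of 2 granule cell markers on the array out of 5, 1, Gabra6, was higher, at 99.8% at P56 and under 1% at E18, and 1, Neurod1, was within 2-fold, at 40.6% at P56 and 56.7% at E18. Neurod1 was 2.34-fold lower at P56 than at P21. The Purkinje cell genes Pvalb, Pcp2 and Calb1 were each 2-fold or more higher at P56 than at E18, and En1, a gene of the cerebellar territory of the embryo, stood at 22.4% at P56 and 100% at E18. Of 4 oligodendrocyte markers on the array out of 8 listed, 3 were higher at P56 than at E18 and 1, Pdgfra, lower, and their median stood at 0.78%, 9.80%, 63.0%, 86.1% and 50.7% over the 5 ages. All 3 markers of dividing cells were lower at P56 than at E18, with medians of 88.2%, 100%, 7.93%, 3.43% and 2.16%. All 4 markers of meninges and connective tissue on the array, out of 5, were lower, with medians of 100%, 78.4%, 34.0%, 28.5% and 24.4%. At the step from P7 to P14 Tnc fell and S100b, Gjb6, Agt and Atp1b2 rose, though Agt and Atp1b2 rose more at another step. At that step from P7 to P14 markers of division also dropped and those of myelin rose. Of 2 choroid plexus markers out of 3, 1, Igfbp2, was lower at P56 than at E18 and 1, Ttr, was within 2-fold. Ttr stood at 62.9% at P56 and 20.4% at P21, 3.08-fold higher at P56, the step at which Ntsr2 rose 3.03-fold, and its part in that rise was not tested. Of 2 microglial ones out of 6, 1, Ctss, was higher, and the 1 endothelial marker on the array out of 4 was lower. The part of such shifts in cell makeup in the courses of the 10 genes was not tested.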

How the data were processed

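Total RNA of whole mouse cerebellum at 5 ages was hybridised to arrays. Per the labels, the authors gave the mean signal of 2 array experiments for each age; how they corrected background, scaled arrays and chose probes is not stated in the labels. These deposited values were taken to be percent, since all lie between 0.01 and 100, and 420 of 897 probes stand at exactly 100 at 1 age. That scaling is read from the values, and no source states it. Signal over background is unknown, and the number of arrays limits the precision.

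Genes were named through the platform's annotation where a probe had 1 symbol (787 probes, 773 genes), and the 10 genes were matched by gene identifier to RefSeq genes of GRCm38.p6. Values under 1% were set to 1% and compared as log2 differences, which gives a bound. With 1 column per age no test was possible, and 2-fold was the limit for a change. Onset was the first age at 50% of a gene's highest value. Likeness was the root mean square log2 difference over 5 ages, with the 2 nearest other genes named for each gene. The limits on each experiment follow from a mean of 2 values between 0 and 100. Alternatives were a floor at the smallest value (0.01%) or at the 10th percentile, a pseudocount of 1%, division of each column by its median, quantile normalization of columns, limits of 3-fold and 1.5-fold, onset at 25% or 75% of the highest value or at 50% of the P56 value, P21 in place of P56 and P7 in place of E18; the limits on each experiment, and both scales for the count at or under 75% and for the median of the other astrocyte genes, were added after the values were seen. All genes and lists were chosen with earlier results of these data known, and motifs with the sequences at hand. The named genes are the 10, their 2 nearest genes each, the other listed astrocyte genes on the array and the cell type markers. On 897 simulated probes the onset age was recovered for 100% and the 2-fold call for 100%. The simulated courses had a sharp step from a low to a high level, or none, with little noise. That recovery checks the computation and not how well onset is called in graded courses such as those seen here. Computation used Python 3.11.15, numpy 2.4.6 and pandas 2.3.3.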

Additional observations from a re-analysis of the deposited data

How the results depend on the processing

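No paired analysis was possible because each age has 1 column. The counts of 9 genes higher and 1 lower at P56 than at E18 were the same with every other floor, pseudocount, scale and fold limit. The limits on each experiment ensured 2-fold in both for 5 of the genes that were higher. For the rest of these, and at the steps below where the limits count fewer genes, the fold in each experiment is unknown. With P7 in place of E18, 6 were higher and 2, Gfap and Tnc, lower. Dividing columns by their medians moved the median of all probes for P56 against E18 to -0.06, where it is -1.07 as deposited, and 64.9% in place of 30.1% of changed probes were then higher, and 54.4% with quantile normalization. At P7 against E18, in place of 5 higher and 0 lower, the 10th percentile floor gave 3 higher, quantile normalization 3 higher and 1, Gjb6, lower, a 1.5-fold limit 1 lower and the limit on each experiment 2 higher. At P14 against P7, in place of 4 higher and 1 lower, both scales and a 1.5-fold limit gave 6 higher, the 10th percentile floor and the pseudocount 3, a 3-fold limit 1 and the limit on each experiment 0 higher and 0 lower; of all probes, 238 in place of 129 were higher with columns divided by their medians and 224 with quantile normalization. At P21 against P14, in place of 2 higher and 0 lower, the 10th percentile floor gave 1 higher, a 3-fold limit 1 higher, a 1.5-fold limit 1 lower and the limit on each experiment 0 higher. At P56 against P21, in place of 1 higher and 0 lower, a 1.5-fold limit gave 1 lower and the limit on each experiment 0 higher. Of the 11 other astrocyte genes, 5 in place of 3 were lower at a 1.5-fold limit. Onset counts of 1, 2, 4, 2 and 1 from E18 to P56 became 3, 4, 2, 1 and 0 at 25% of the highest value, with 1 at P14 and 4 at P56 at 75%, 2 at P14 and 4 at P21 with columns divided by their medians (S100b and Clu moved to P21), and 1 at P21 with quantile normalization (Gjb6 moved to P14). The onset age was the same for 4 of the 10 genes at 25%, 6 at 75%, 9 with the P56 value as the mark, 8 with columns divided by their medians and 9 with quantile normalization. The floor at the smallest value could change no count or difference of the 10 genes, since all of them stood above 1% at every age. Of 250 log2 differences under the other floors and scales, that floor included, 187 moved by less than 0.38, the median gap between 2 probes of 1 gene. The other 63 moved by more, and 0 of those past 2-fold changed sign. No cause of these shifts was tested beyond what each alternative changes.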
